A study of Caenorhabditis elegans with 4 samples.

Results

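The regions described are the MDL-1::GFP binding sites that lie in the 2 large spans of chromosome IV known for their piRNA genes in the nematode Caenorhabditis elegans. A peak was counted as a member when it lay on IV and its midpoint fell from 4.5 to 7 Mb (the first span) or from 13.5 to 17.2 Mb (the second span). There were 456 members, 228 in each span, of 1620 peaks on IV and 9533 in the whole list. The members were chosen by position alone, and no width or q-value entered the rule. Earlier results of these data were known when the choice was made.

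Chromatin immunoprecipitation and sequencing (ChIP-seq) was done on fed L1 hermaphrodite larvae of strain OP106, grown at 20 °C and crosslinked with 2% formaldehyde. The 2 groups were anti-GFP ChIP DNA (2 libraries) and input DNA (2 libraries). All 4 libraries came from the same genotype: the allele unc-119 (ed3) on III, and the integrated transgene wgIs106. That transgene encodes mdl-1::TY1::EGFP::FLAG and also carries a wild-type copy, unc-119(+), so the input samples hold it as well. Per the labels the fusion protein follows the normal pattern of mdl-1, and no allele of the endogenous mdl-1 gene is listed. Whole larvae were used, so sites from all tissues are in 1 list. The analysed list is named as combined and holds no value per library. For that reason the depth is unknown and none of the values below has a replicate error.

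MDL-1 is a Mad-like protein of the basic helix-loop-helix leucine zipper class, whose relatives pair with a Max-like partner at E-box sites and mostly lower transcription. piRNAs are short RNAs that guide the Piwi protein PRG-1 to foreign and transposon transcripts in the germline. In C. elegans most of them come from very many small, separately transcribed genes that are packed into broad parts of chromosome IV, between and within ordinary protein-coding genes. An L1 larva holds very few germ cells, so nearly all cells sampled are somatic.

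In the RefSeq gene table of assembly WBcel235, 14714 of 15363 piRNA genes (95.8%) are on chromosome IV, while each of the other 5 chromosomes carries 78 to 202. The peaks are in WormBase WS180, another build, so no peak was assigned to a piRNA gene or to any other gene. The edges of the spans are those of the rule and could not be checked against piRNA genes in the build of the peaks. No sequence of the peaks is shown, because no genome of that build was used here.

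The second span was sparse in MDL-1::GFP peaks and the first was close to the rest of the chromosome. The first span held 91.2 peaks per Mb (95% exact Poisson interval 79.7 to 104) over 2.5 Mb. The second held 61.6 per Mb (53.9 to 70.2) over 3.7 Mb. The rest of IV, 11.2 Mb between its first and last peak, held 1164 peaks or 104 per Mb (97.7 to 109.7). These intervals take each peak as independent and hold counting error alone.

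The ratio to the rest of IV was 0.88 in the first span and 0.59 in the second. Because peaks cluster, each ratio was also given an interval widened by the dispersion of counts in windows of 250 kb, which was 1.68 times the Poisson value. That value was pooled over 67 windows, 43 of them in the rest of IV. Relative to their means, the counts varied more in the spans, so the widened intervals may be too narrow there. For the first span the exact interval was 0.76 to 1.02 and the widened one 0.73 to 1.06, so a difference from the rest could not be shown. For the second span they were 0.51 to 0.69 and 0.49 to 0.72, below 1 in both forms. Set against each other, the first span had 1.48 times the density of the second (exact 1.23 to 1.79, widened 1.17 to 1.88). The spans together held 28.1% of the peaks of IV on 35.6% of its bases.

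The parts of IV around the spans were alike in density, so the sparseness of the second span did not depend on which of them it was set against. Its ratio was 0.60 to the 6.5 Mb between the spans, where 671 peaks gave 103 per Mb. It was 0.59 to the part before the first span, where 461 peaks gave 104 per Mb. The short end of IV behind the second span, only 0.289 Mb with 32 peaks, had 110.7 per Mb (exact interval 75.7 to 156).

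**Figure D1:**
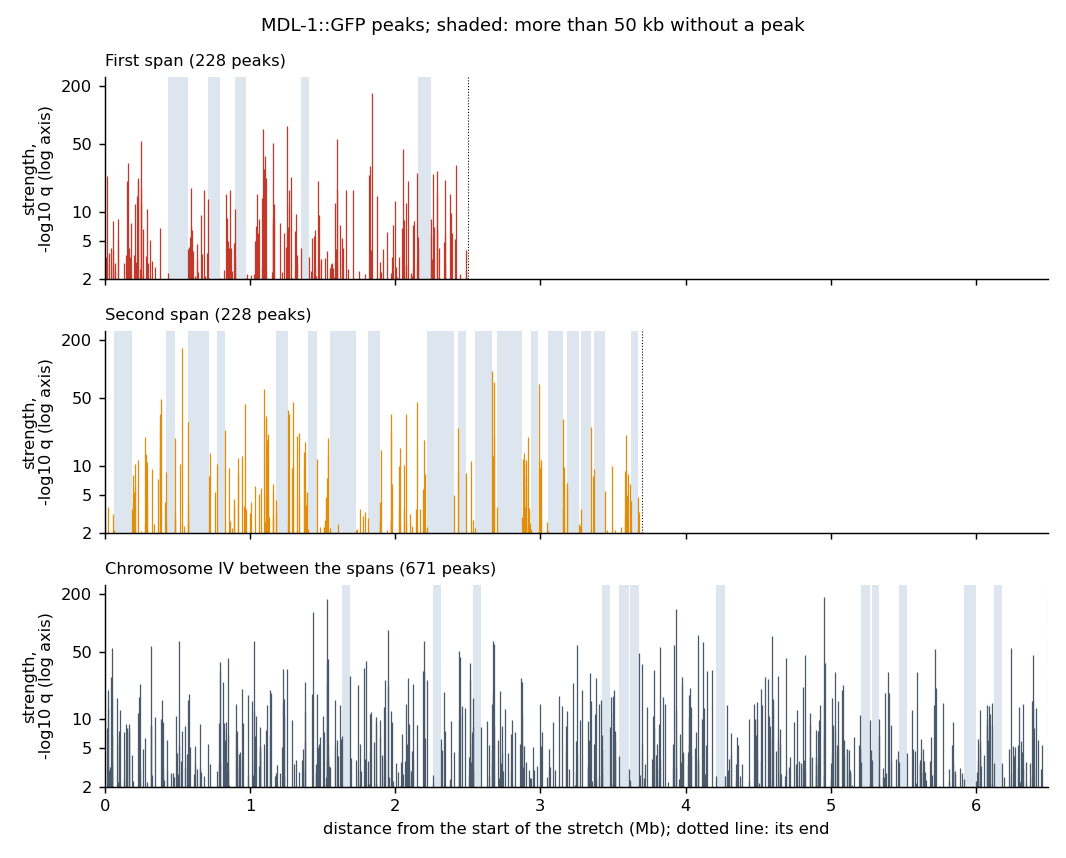
Each vertical line is 1 peak, drawn at its distance from the start of the stretch (horizontal axis, Mb) up to its strength, -log10 of the deposited q-value (vertical log axis). Shading marks runs of more than 50 kb without a peak, of which there are 5 in the first span, 19 in the second and 12 in the longer part between them.

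Counts in windows of 250 kb showed the same picture with its spread. The 10 windows of the first span held 22.8 ± 7.61 peaks (SD over windows), the 14 full windows of the second span 15 ± 5.80 and the 43 full windows in the rest of IV 25.7 ± 5.75. The lowest, median and highest windows were 11, 22 and 34 in the first span, 4, 15 and 22 in the second, and 14, 26 and 37 in the rest. All groups of windows overlap, but 7 of the 24 windows in the spans, 6 of them in the second, had fewer peaks than the emptiest of the 43 outside.

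Within the first span the windows were uneven. The densest held 34 peaks each, from 4500001 to 4750000 and from 5500001 to 5750000, and the sparsest had 11, from 4750001 to 5000000, next to the first of these. The second span had no window above 22 peaks. That number was reached from 13750001 to 14000000, from 14500001 to 14750000 and from 16250001 to 16500000. Its sparsest window, from 15750001 to 16000000, held 4 peaks.

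**Figure D2:**
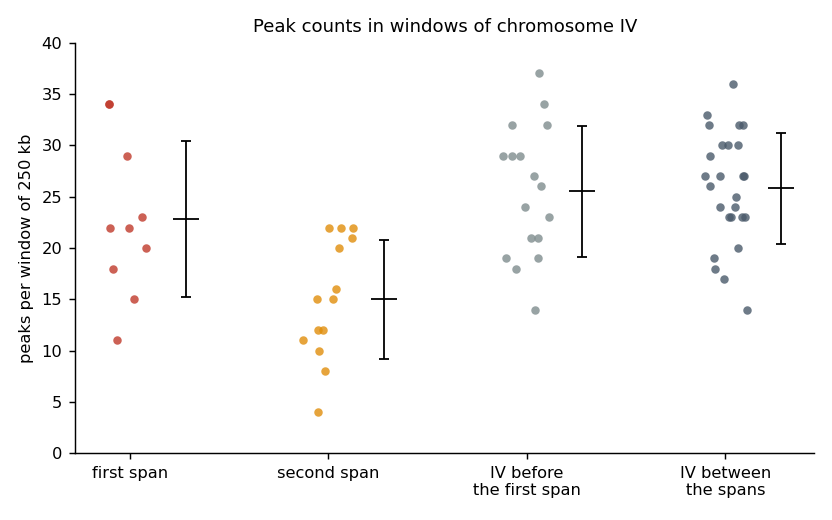
Points are windows of 250 kb that lie wholly in 1 region (10, 14, 17 and 26 from left to right), and the vertical axis gives the number of peaks in each. Bars show the mean and SD over windows: 22.8 ± 7.61 in the first span, 15 ± 5.80 in the second, 25.5 ± 6.37 before the first span and 25.8 ± 5.43 between the spans.

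The lower count in the second span went along with long stretches that hold no peak at all. Stretches of more than 50 kb numbered 5 in the first span, 19 in the second and 22 in the rest of IV. They took up 18.0% of the bases of the first span, 47.2% of the second and 11.7% of the rest. Stretches of more than 100 kb numbered 1 in the first span, 7 in the second and 1 in the rest. The spans thus held 8 of the 9 such stretches on IV, and 18.6% of the 43 in the whole list on 6.20% of its bases.

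The 3 longest stretches on IV were all in the second span. They ran from 15718446 to 15901181 (182736 bp), from 16203647 to 16370133 (166487 bp) and from 14072302 to 14219657 (147356 bp), and ranked 4, 6 and 9 in the whole list. In the first span the longest ran from 4930999 to 5073983 (142985 bp) and ranked 13. The longest in the rest of IV was 104016 bp.

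With these stretches of over 50 kb taken off the length, the 3 regions had close densities. The remaining 2.05 Mb of the first span held 111 peaks per Mb (exact interval 97.2 to 127), the remaining 1.95 Mb of the second 117 (102 to 133) and the remaining 9.92 Mb of the rest 117 (110.7 to 124). The ratio of the second span to the rest was then 0.99 (widened interval 0.83 to 1.20). That of the first to the second was 0.95 (0.75 to 1.21). The stretches were picked because they are empty, in all regions by the same limit. They took a larger share of the sparser second span, which raises its ratio by construction. This is a description of where the bases without peaks lie and no test of the deficit. Whether reads can be placed uniquely in these stretches, and how many genes they hold, was not tested.

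The empty stretches cut the second span into 20 islands of peaks and the first into 6. Islands of the first span held 13 to 75 peaks (median 34.5) over 103 to 753 kb. Islands of the second held 1 to 35 peaks (median 7) over 0.405 to 352 kb, and 8 of the 20 had no more than 5 peaks. The largest in the second span, from 14326904 to 14679284, held 35 peaks. The smallest was a single weak peak of 405 bp from 15107131 to 15107535 (strength 2.45), with 57307 bp without a peak on its left and 125126 bp on its right. The peaks that border the empty stretches of the second span, 37 in all, had a median strength of 3.76 (order-statistic interval 2.61 to 5.64), against 4.36 (3.69 to 5.88) for the other 191, and these intervals overlap.

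Peaks of high strength were also found inside the sparse span. The strength of a peak is the -log10 of its q-value as listed in the authors' deposited table. It ranks significance and does not measure the amount of binding. The strongest peak of the second span ran from 14032601 to 14034611 (2011 bp, strength 167) and ranked 4 on IV and 16 in the list. The next, from 16167515 to 16171103, was also the widest of either span at 3589 bp (strength 96.7). The next in strength lay close by, from 16180583 to 16181382 (800 bp, strength 74.3). The others ran from 16491118 to 16493113 (1996 bp, strength 69.7) and from 14594098 to 14594695 (598 bp, strength 63.0). The 3 widest of the second span were those of 2011, 3589 and 1996 bp among these.

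The peaks of strength 96.7 and 74.3 belong to 1 island of 7 peaks that covers 36132 bp. It has 121124 bp without a peak on its left and 166487 bp on its right. This island was picked after its values had been seen. Between the strong pair lie peaks of strength 12.6, 6.22, 3.11 and 20.1, and a last one of strength 3.76 stands 22064 bp to the right of the others. Peaks with some of the smallest q-values of the chromosome thus stood between flanks without any called site.

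In the first span the strongest peak ran from 6336030 to 6337208 (1179 bp, strength 169) and ranked 3 on IV and 15 in the list. It was followed by peaks from 5753082 to 5755127 (2046 bp, strength 77.7) and from 5591041 to 5591595 (555 bp, strength 72.7). The remaining ones ran from 6096883 to 6097876 (994 bp, strength 57.0) and from 4749917 to 4750357 (441 bp, strength 54.6). The widest was the second of these, with peaks from 6554809 to 6556244 (1436 bp, strength 45.1) and from 4748301 to 4749572 (1272 bp, strength 17.6) next. The last of these stands 344 bp from the peak of strength 54.6, so a broad weaker and a narrow stronger region adjoin there.

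Over all members, strengths were slightly lower than elsewhere on IV, by less than the intervals of the medians. The median was 4.25 (order-statistic interval 3.63 to 5.23) in the first span, 4.29 (3.67 to 5.30) in the second and 4.81 (4.47 to 5.17) in the rest. The share of peaks with a strength above 10 was 22.4% (95% exact binomial interval 17.1 to 28.3) in the first span, 27.2% (21.5 to 33.5) in the second and 27.7% (25.2 to 30.4) in the rest. Each span held 14.1% of the peaks of IV. Among the 50 strongest peaks of IV, 6 lay in the first span and 5 in the second. Among the 100 strongest these counts were 8 and 15, and among the 200 strongest 25 and 27.

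The ratio of the second span to the rest of IV was below 1 in each strength class. With the whole list split into 4 equally filled classes, it was 0.73 (widened interval 0.53 to 1.01) in the weakest class, then 0.52 (0.35 to 0.76), 0.57 (0.38 to 0.84) and 0.56 (0.38 to 0.81) in the strongest. In the weakest class the widened interval reaches past 1, while the exact one, 0.56 to 0.94, stays below it. The widening used the dispersion of all peaks in every class, and differences between the classes were not tested. For the first span the ratios were 1.04 (0.74 to 1.45), 0.86 (0.60 to 1.24), 0.87 (0.59 to 1.29) and 0.75 (0.50 to 1.11), with all 4 widened intervals across 1. Peaks of strength above 10 numbered 20.4 per Mb in the first span, 16.8 in the second and 28.7 in the rest. Their ratio to the rest was 0.71 (0.48 to 1.04) in the first span and 0.58 (0.41 to 0.83) in the second. The exact intervals, 0.52 to 0.96 and 0.44 to 0.77 in that order, lay below 1 in both spans.

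Widths of the peaks differed between the regions by less than the intervals of their medians. The median was 284.5 bp in the first span (quartiles 187 and 396.5), 291.5 bp in the second (199 and 420.2) and 284 bp in the rest (189 and 411). Order-statistic intervals of these medians were 262 to 304, 263 to 322 and 271 to 294 bp. Peaks narrower than 200 bp made up 27.6% (exact binomial interval 21.9 to 33.9), 25.4% (19.9 to 31.6) and 28.4% (25.9 to 31.1) in the same order. Peaks wider than 800 bp made up 4.39% (2.12 to 7.92), 4.82% (2.43 to 8.47) and 4.21% (3.13 to 5.53). In no measure of width did an interval of a span lie apart from that of the rest. The rest was itself mixed in width. Peaks narrower than 200 bp made up 34.9% (30.6 to 39.5) before the first span and 23.7% (20.5 to 27.1) between the spans. The intervals of both spans overlapped each of these.

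Wider peaks were stronger in every region. Across peaks, which are no replicates, the rank correlation (Spearman's rho) of these measures was 0.74 in the first span, 0.77 in the second and 0.79 in the rest, given as a description. Within the strength classes the median widths ran from weakest to strongest as 170, 250, 330 and 435 bp in the first span. In the second span they were 140, 236, 359 and 457 bp, and in the rest 153, 223.5, 319 and 484 bp. The intervals of the spans overlapped those of the rest in all 4 classes. Peaks covered 2.97% of the bases of the first span, 2.19% of the second and 3.49% of the rest.

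**Figure D3:**
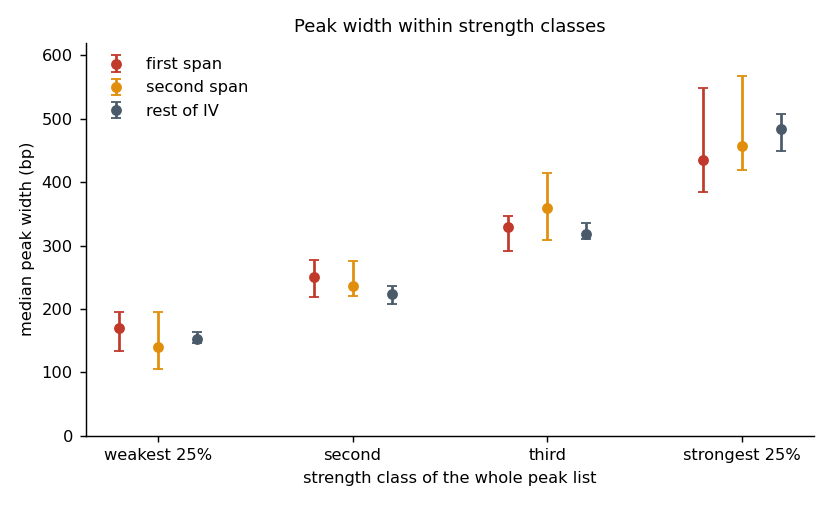
Median peak width (vertical axis, bp) in each of 4 equally filled strength classes of the whole list, for the first span, the second span and the rest of IV from left to right within a class. Bars are 95% order-statistic intervals of the median; they overlap in each class, and medians rise from 140 to 170 bp in the weakest class to 435 to 484 bp in the strongest.

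Long gaps were more frequent in the second span than in the rest of IV, while its median gap differed by less than its interval. The median gap between neighbours was 5140 bp in the first span (order-statistic interval 4254 to 6479), 3982 bp in the second (3240 to 6135) and 4139 bp in the rest (3667 to 4641). The upper quartile of gaps was 12920 bp in the first span, 18558 bp in the second and 12711 bp in the rest. The shortest gaps were 203 to 207 bp in the 3 regions. Gaps of more than 50 kb made up 2.20% (exact binomial interval 0.719 to 5.07) of gaps in the first span, 8.37% (5.11 to 12.8) in the second and 1.89% (1.19 to 2.85) in the rest. Mean gaps were 10641, 15840 and 9269 bp in that order.

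The median gap of the second span less that of the rest was -157 bp, and it turned to 826.5 bp with peaks of above-median strength and to 299 bp with peaks within 1 kb merged. The median gap of the first span less that of the rest was 1001 bp. It was 743 bp with peaks of above-median strength and -110 bp with peaks within 1 kb merged. No order is therefore stated for either pair.

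Between the spans, the median gap of the first was 1158 bp longer, but this order turned. With peaks of above-median strength it was -83.5 bp and with peaks within 1 kb merged it was -409 bp, so no order of the median gaps is stated. Shares of gaps of middle length had overlapping intervals within each class taken alone. Those of 4 to 8 kb made up 18.9% (14.1 to 24.7) in the first span, 10.6% (6.89 to 15.3) in the second and 14.4% (12.4 to 16.5) in the rest. Those of 2 to 4 kb made up 9.69% (6.17 to 14.3), 16.3% (11.7 to 21.8) and 13.5% (11.6 to 15.6). Gaps of 8 to 16 kb made up 18.9% (14.1 to 24.7), 11.5% (7.62 to 16.3) and 16.3% (14.2 to 18.5). All these intervals overlap within a class of gaps. From 4 to 8 kb and from 8 to 16 kb alike, the first span had a larger share than the second, and the classes were not joined for a comparison.

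**Figure D4:**
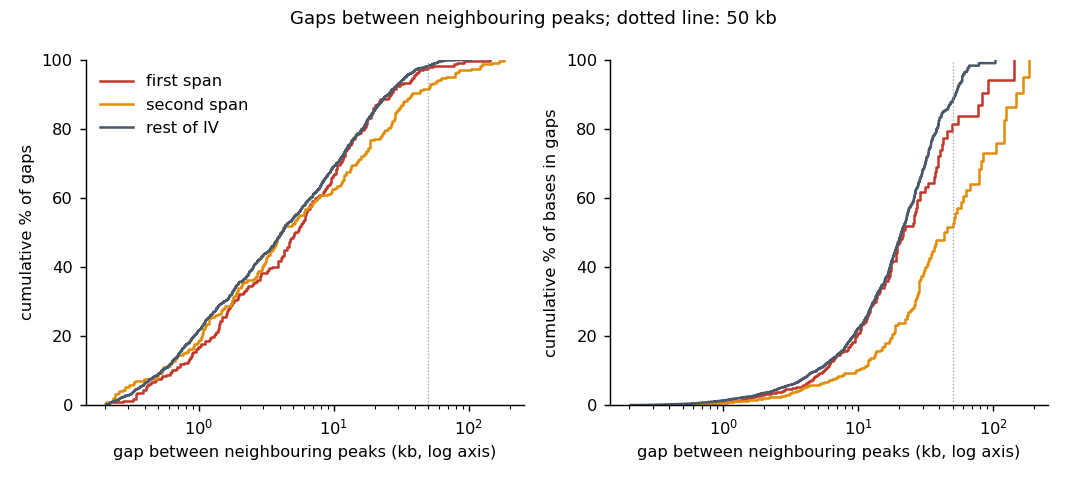
Left, cumulative percentage of gaps by gap length (kb, log axis); right, cumulative percentage of the bases in gaps, for the first span, the second span and the rest of IV. The curves start close together for the shortest gaps and are already apart below the dotted line of 50 kb. Above that line lie 2.20% of the gaps in the first span, 8.37% in the second and 1.89% in the rest.

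Groups of close peaks were fewer per Mb in the second span than in the rest of IV, while the share of peaks in groups had overlapping intervals. A neighbour within 1 kb was found for 68 of the 228 peaks in each span, or 29.8% (exact binomial interval 24.0 to 36.2), and for 426 of 1164 in the rest, or 36.6% (33.8 to 39.4). The equal counts of the spans come from different groupings, and the intervals overlap that of the rest. The first span had 30 groups, 23 of them pairs and 6 of 3 peaks, and the second had 26, with 15 pairs and 8 of 3. In the rest there were 175 groups, 123 of them pairs. Groups numbered 12 per Mb (exact Poisson interval 8.10 to 17.1) in the first span, 7.03 (4.59 to 10.3) in the second and 15.6 (13.4 to 18.1) in the rest.

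The largest group of the first span had 4 peaks, from 5088985 to 5091790. Its outer peaks were 360 and 579 bp wide with strengths of 17.7 and 7.20, and the inner ones were only 8 and 5 bp wide with strengths of 3.18 and 2.96. In the second span the largest groups had 5 peaks. One ran over 4823 bp from 14609752 to 14614574, with strengths of 12.2, 32.7, 30.1, 3.15 and 18.6 from left to right and widths of 196 to 1316 bp. The other ran over 3386 bp from 16398106 to 16401491, with strengths of 11.3, 10.8, 6.21, 2.61 and 8.05 and widths of 118 to 717 bp. In both groups of 5 the weakest was also the narrowest and stood next to the rightmost. The largest groups in the rest of IV held 6 peaks. No read counts were used, so it was not tested if the peaks of a group are distinct sites or fragments of a single one.

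Peaks with a neighbour within 1 kb had higher medians of strength and width in each region. In the first span the median strength was 6.26 (order-statistic interval 4.28 to 8.46) with such a neighbour and 4.01 (3.39 to 4.34) without. In the second it was 8.09 (4.15 to 11.0) and 3.79 (3.53 to 4.98), and in the rest 5.48 (4.89 to 6.25) and 4.39 (3.96 to 4.85). The intervals overlap in both spans and are apart in the rest. Median widths were 347 bp with a neighbour and 268 bp without in the first span, 360.5 and 266 bp in the second, and 318.5 and 270.0 bp in the rest. Among peaks with such a neighbour, those of strength above 10 made up 29.4% in the first span, 41.2% in the second and 32.2% in the rest. Among peaks without one they made up 19.4%, 21.2% and 25.2% in the same order.

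The edges of the spans did not fall on strong peaks. At the start of the first span the last peak outside ended at 4489785 (strength 2.54) and the first inside began at 4506744 (strength 3.42). At its end the last inside was a region of 12 bp that ended at 6996477 (strength 2.04), and the first outside began at 7016562 (strength 8.14). At the start of the second span the peak outside ended at 13453820 (strength 5.48) and the first inside began at 13503112 (strength 2.55). At its end the last inside ended at 17179970 (strength 3.33) and the first outside began at 17210811 (strength 2.98). With each edge moved by 200 kb inward or outward, the ratio of the second span to the rest was 0.60 and 0.64, and that of the first 0.88 and 0.97.

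A sparse distal part was also found on V and, to a lesser degree, on I. Places at the same fractions of the other chromosomes were taken for comparison after the result on IV had been seen. At the place of the second span, IV held 61.6 peaks per Mb, which is 0.59 times the rest of IV, and V held 58.8 (exact Poisson interval 51.9 to 66.4), which is 0.62 times the rest of V. IV had 19 stretches of over 50 kb there, 7 of them over 100 kb, against 19 and 6 on V. These stretches took up 47.2% of that place on IV and 41.5% on V. On I the ratio was 0.72, with 13 such stretches over 27.5% of the bases, while on III, II and X it was 0.94, 1.00 and 1.06. On X, sparse over its whole length at 61.2 peaks per Mb outside both places, 15 such stretches took up 32.6% of the bases without a lower density than in the rest of X.

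At the place of the first span the ratio to the rest of the same chromosome was 0.88 on IV, and 0.92, 1.16, 1.00, 1.11 and 0.93 on I, II, III, V and X. The first span of IV had the lowest of these 6 ratios, and its widened interval reaches past 1. In the place of the second span the median gap was 3982 bp on IV, against 6852 bp on V, 5591 bp on I and 7337 bp on X. On II it was 3286 bp and on III 4213 bp, both in places without a comparable deficit. The second span of IV had a median gap between those of the denser places on II and III, together with as many empty stretches as V. The interval of that median gap, 3240 to 6135 bp, takes in the medians on I, II and III but not those on V and X. No intervals were computed for the median gaps of the other chromosomes, and differences between chromosomes were not tested.

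**Figure D5:**
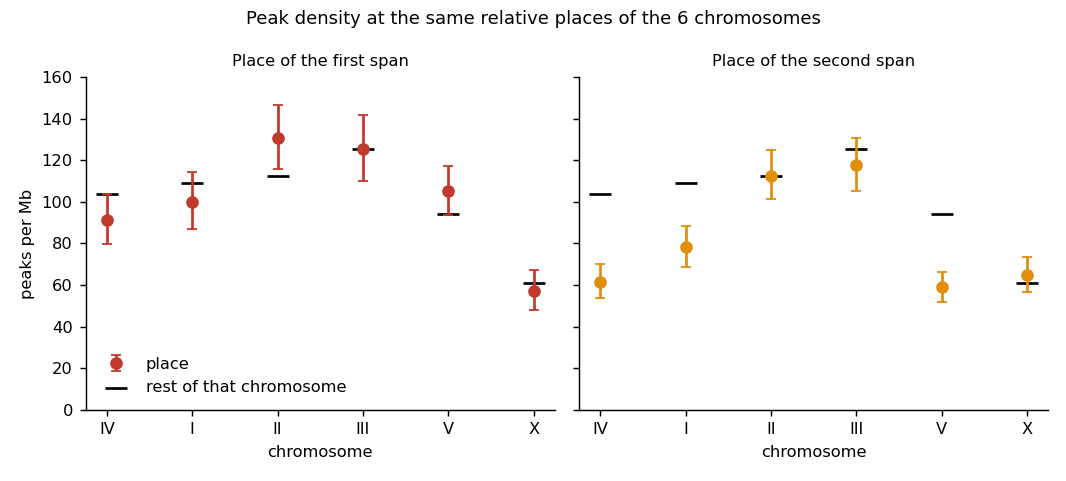
Peaks per Mb (vertical axis) at the same relative place of each chromosome, for the place of the first span (left) and of the second span (right). Points have 95% exact Poisson intervals and dashes show the rest of the same chromosome; at the place of the second span, IV (61.6) and V (58.8) lie furthest below their dashes.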

How the data were processed

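The members and comparisons were chosen with earlier results of these data known. The authors deposited 1 combined list of peaks, PeakSeq calls on build WS180 of WormBase, per the file headers. How reads were aligned and filtered, and how the replicates went into 1 list, is not given in the sources used here. The q-value (a p-value adjusted by the authors) was deposited in the score column and again as an attribute, identical in all 9533 peaks, and is the only value per peak; the highest was 0.00991. From it, strength was computed as -log10. Positions count from 1. Width was last minus first base plus 1, a gap the bases between neighbours of the same region, and a group peaks joined by gaps within 1 kb. Densities outside the spans are per base of IV between its outermost peaks (51165 to 17488988). Exact Poisson, conditional binomial and order-statistic intervals (95%) were computed, and widened intervals used the Pearson dispersion over 67 windows. No p-value was computed, since 1 list gives no replicates. Named peaks were the 5 strongest and 3 widest per span, the 3 longest empty stretches, the largest groups, the edge peaks, and the densest and sparsest windows. The density procedure was tested on simulated lists, with peaks placed singly or in clusters of equal size. Those lists had no region with a larger dispersion of its own. The test therefore does not show how the intervals hold where counts vary more, as in the spans. Tools were scipy 1.17.1, numpy 2.4.6, pandas 2.3.3 and, for figures, matplotlib 3.10.9, under Python 3.11.15.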

Additional observations from a re-analysis of the deposited data

How the results depend on the processing

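Of 58 values under alternatives, 43 stayed within the interval of the reported value or, for counts, within 1.5 times it. For differences of medians that interval had the width of the median interval of the first-named region, so the error of the other region was left out. List percentiles in place of strength were judged by direction only. The ratio of the second span to the rest of IV ran from 0.56 (peaks of above-median strength) to 0.64 (edges moved outward) over the alternatives fixed at the start. Taking the empty stretches off the length, chosen after seeing the data, gave 0.99 for it and 0.95 for the first span against the second, the reverse of 1.48. The limit took off 47.2% of the second span, 18.0% of the first and 11.7% of the rest. A larger share taken off the sparser region raises its ratio by construction, so neither ratio is a test. The median gap of the first span less that of the second turned to -83.5 bp with above-median peaks and -409 bp with peaks within 1 kb merged; the cause was not tested. Median widths less those of the rest, 0.5 bp in the first span and 7.5 bp in the second, were 26.5 bp (first) in the second strength class, 40 bp (second) in the third, and -49 bp (first) and -27 bp (second) in the strongest. Between the spans the difference of -7 bp became -43 bp with above-median peaks, 30.0 bp in the weakest class and -29 bp in the third; the cause was not tested. Grouped peaks made up 14.04% and 14.9% of the first and second span with a limit of 500 bp, and 51.3% and 52.2% with 2 kb, as the limit itself sets. No paired analysis was possible because the combined list holds no value per library, so no replicate could be left out either. Depth is unknown, so the number of weaker sites below the threshold cannot be given.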
